A study of Mus musculus with 13 samples.

Results

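The Wnt pathway was examined in mouse embryonic stem (ES) cells that had been induced to make CTCF S224E, a form of the chromatin protein CTCF in which a serine is replaced by glutamate to mimic phosphorylation. The genes were matched by symbol, under a rule set with earlier results of these data known. They were the Wnt ligands, the Frizzled receptors with Lrp5 and Lrp6, and the secreted antagonists of the Dkk and Sfrp families. To these were added the R-spondins with Lgr5, and the nuclear or feedback genes Lef1, Tcf7, Sp5, Axin1, Axin2, Nkd1, Nkd2 and Notum. This rule gave 52 of the 24421 genes counted, made up of 19 ligands, 12 receptors, 8 antagonists, 5 genes of the R-spondin axis, 3 nuclear factors and 5 feedback genes.

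RNA came from F1-2.1 ES cells, a female line of a CAST/Ei x 129/Sv/Jae cross, with the genotype Tet-on CTCF S224E. The cells were kept on irradiated mouse fibroblast feeders in serum and LIF, the cytokine that holds ES cells undifferentiated. The +dox group received 1 μg/mL doxycycline for 6 days and the -dox group received none over the same 6 days, with 2 libraries in each. Both groups carried the transgene, and both came from clone A2, so the comparison describes a single clone. Feeder RNA was not removed by any step that the sources describe. Cells given doxycycline but lacking the transgene were not analysed here, and so the drug and S224E cannot be told apart as sources of a difference. The study describes the libraries as biological replicates, and p-values measure the spread between 2 libraries of a group.

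Counted reads per library ranged from 22899107 to 30206085, of which 23828 to 39169 fell on the 52 Wnt genes. Levels are given in CPM, the read count of a gene scaled to a common library total, here after edgeR's trimmed mean of M values adjustment. Ctcf itself, counted from the endogenous gene and the transgene together, stood at 327 and 329 CPM in the +dox libraries and at 295 and 304 CPM in the -dox libraries, a log2 fold change of 0.13 (edgeR adjusted p = 0.475). The library +dox replicate 1 stood apart from the others. The summed level of 34 genes typical of fibroblasts was 5549 CPM there, against 2739 CPM in +dox replicate 2 and 2451 and 2757 CPM in the -dox libraries, and 236 reads fell on 21 genes of chromosome Y against 67 to 76 in the other 3 libraries. All 34 fibroblast genes were highest in that library and none of them was at 0 in any library. Of the 33 that averaged 1 CPM or more, 22 had both +dox libraries above both -dox libraries, beside 26.1% of all genes at that level. For some of the Wnt results that move with +dox replicate 1, values without it are also given below. Such values rest on a lone +dox library, so they are given as log2 fold changes without p-values. In bulk RNA, fewer cells of a type and less RNA per cell cannot be told apart. Of the ES cell markers, 15 naive pluripotency genes summed to between 4479 and 5431 CPM and edgeR called none of them at an adjusted p under 0.01. The 6 core pluripotency genes summed to 4069 and 4218 CPM with dox and to 3387 and 3495 CPM without. All 6 were higher with dox within both replicate tables, where 34.0% of all genes that averaged 1 CPM or more were. By edgeR, 5 were higher at an unadjusted p under 0.05, beside 8.48% of all genes tested. However, edgeR called 0 of the 6 at an adjusted p under 0.01. The part of these 6 genes in the Wnt results was not tested.

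Wnt proteins are secreted lipid-modified ligands that bind Frizzled receptors and, in the canonical branch, the co-receptors Lrp5 and Lrp6. Binding stops the destruction complex, built on Axin, from degrading β-catenin, which then enters the nucleus and switches on genes bound by the Tcf and Lef factors. Several of those genes, among them Axin2, Sp5, Nkd1, Notum, Dkk1 and Lgr5, themselves tune the pathway. In ES cells canonical Wnt signals are known to support self-renewal, and in the embryo they are required to form the primitive streak, where the T-box gene T is switched on.

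Tcf and Lef proteins recognise DNA with a core of CTTTGAT or CTTTGAA. Promoter sequences are shown for the 4 Wnt genes whose 250 bases before a RefSeq transcript start hold either core on either strand, because Sp5 and Dkk1, on which the results below turn, are among them. The sequences are from RefSeq on GRCm38.p6, a later build than the mm9 coordinates of the counts, and run 5′ to 3′ on the gene's strand with the core in capitals. The Sp5 window is chr2:70474673-70474922 (+), the Dkk1 window chr19:30549497-30549746 (-), the Wnt5b window chr6:119449387-119449636 (-) and the Wnt11 window chr7:98834862-98835111 (+).
Sp5: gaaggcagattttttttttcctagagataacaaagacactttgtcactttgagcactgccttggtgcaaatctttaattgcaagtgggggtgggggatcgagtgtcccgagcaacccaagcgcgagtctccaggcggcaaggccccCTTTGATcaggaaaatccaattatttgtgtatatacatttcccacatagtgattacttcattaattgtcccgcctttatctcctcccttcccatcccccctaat
Dkk1: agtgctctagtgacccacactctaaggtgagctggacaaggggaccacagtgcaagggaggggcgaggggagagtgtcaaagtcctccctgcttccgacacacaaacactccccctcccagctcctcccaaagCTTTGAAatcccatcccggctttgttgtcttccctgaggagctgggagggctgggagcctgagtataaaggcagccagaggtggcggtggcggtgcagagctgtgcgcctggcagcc
Wnt5b: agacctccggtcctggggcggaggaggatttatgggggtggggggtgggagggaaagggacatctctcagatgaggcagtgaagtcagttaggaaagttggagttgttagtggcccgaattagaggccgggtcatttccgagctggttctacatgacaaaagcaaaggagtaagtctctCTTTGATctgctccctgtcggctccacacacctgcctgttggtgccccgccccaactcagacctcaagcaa
Wnt11: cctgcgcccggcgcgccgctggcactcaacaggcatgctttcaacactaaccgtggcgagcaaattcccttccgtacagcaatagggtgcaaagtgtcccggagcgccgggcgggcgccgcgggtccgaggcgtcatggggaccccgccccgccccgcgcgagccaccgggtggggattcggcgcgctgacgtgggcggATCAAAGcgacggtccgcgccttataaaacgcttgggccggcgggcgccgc

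The core began 104 bases before the start in Sp5, 117 in Dkk1, 71 in Wnt5b and 51 in Wnt11, where it lay on the opposite strand and is printed as ATCAAAG. Wnt11 also shares exon sequence with Gm8398 on the opposite strand. RefSeq windows were found for 33 of the 52 genes, and 4 of these, or 12.1%, held a core. Over all 27025 genes with a window the share was 8.63%. A match in letters is no evidence of binding, and a window without one says only that these letters are not in it.

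Sp5, a zinc finger transcription factor that is itself a direct target of β-catenin, was the only Wnt gene that passed the main test, and it fell. Its level was 9.28 and 9.46 CPM in the +dox libraries and 27.3 and 21.6 CPM in the -dox libraries, from 209, 216, 833 and 541 reads. Both +dox values lay below both -dox values and close to each other. The log2 fold change was -1.38 ± 0.18 (SE, n = 2 per group, 95% interval -1.77 to -0.99), a level at 38.4% of the -dox mean, with an adjusted p of 0.00208 in edgeR's quasi-likelihood test and 4.68e-08 in DESeq2, with Benjamini-Hochberg adjustment over all genes tested in edgeR and over those left by independent filtering in DESeq2. The gene spans chr2:70312980-70315783 on the plus strand of mm9, and its transcript has 2 exons. Without +dox replicate 1 the value was -1.37. Leaving out -dox replicate 1 or -dox replicate 2 left log2 fold changes of -1.20 and -1.54, and no gene of the whole table was then called by edgeR, although 1753 and 1450 genes had an unadjusted p under 0.05. The edgeR call of Sp5 was also lost with the filterByExpr filter on low counts and when deviances were adjusted for low counts, with log2 fold changes of -1.38 and -1.39.

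At an adjusted p under 0.01, edgeR called 1 of the 52 Wnt genes lower with dox and 0 higher, where over all 20044 genes tested it called 0.519% lower and 0.0798% higher. At an unadjusted p under 0.05 there were 17 Wnt genes lower and 6 higher, beside 9.31% and 8.48% of all genes. DESeq2, which the study used, called 5 Wnt genes lower, namely Sp5, Dkk1, Axin2, Fzd2 and Lrp5, and 0 higher. Over all genes it called 1.28% lower, and 118 of the 20044 higher. It gave no adjusted p for 10 Wnt genes of low count. At an adjusted p under 0.05, edgeR called 7 Wnt genes lower and 0 higher, which were those 5 with the ligands Wnt3 and Wnt5b, and its background was 1.93% lower and 0.928% higher. An exact permutation test of 2 against 2 libraries cannot give a two-sided p below 0.3333, so none is reported for single genes.

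**Figure D1:**
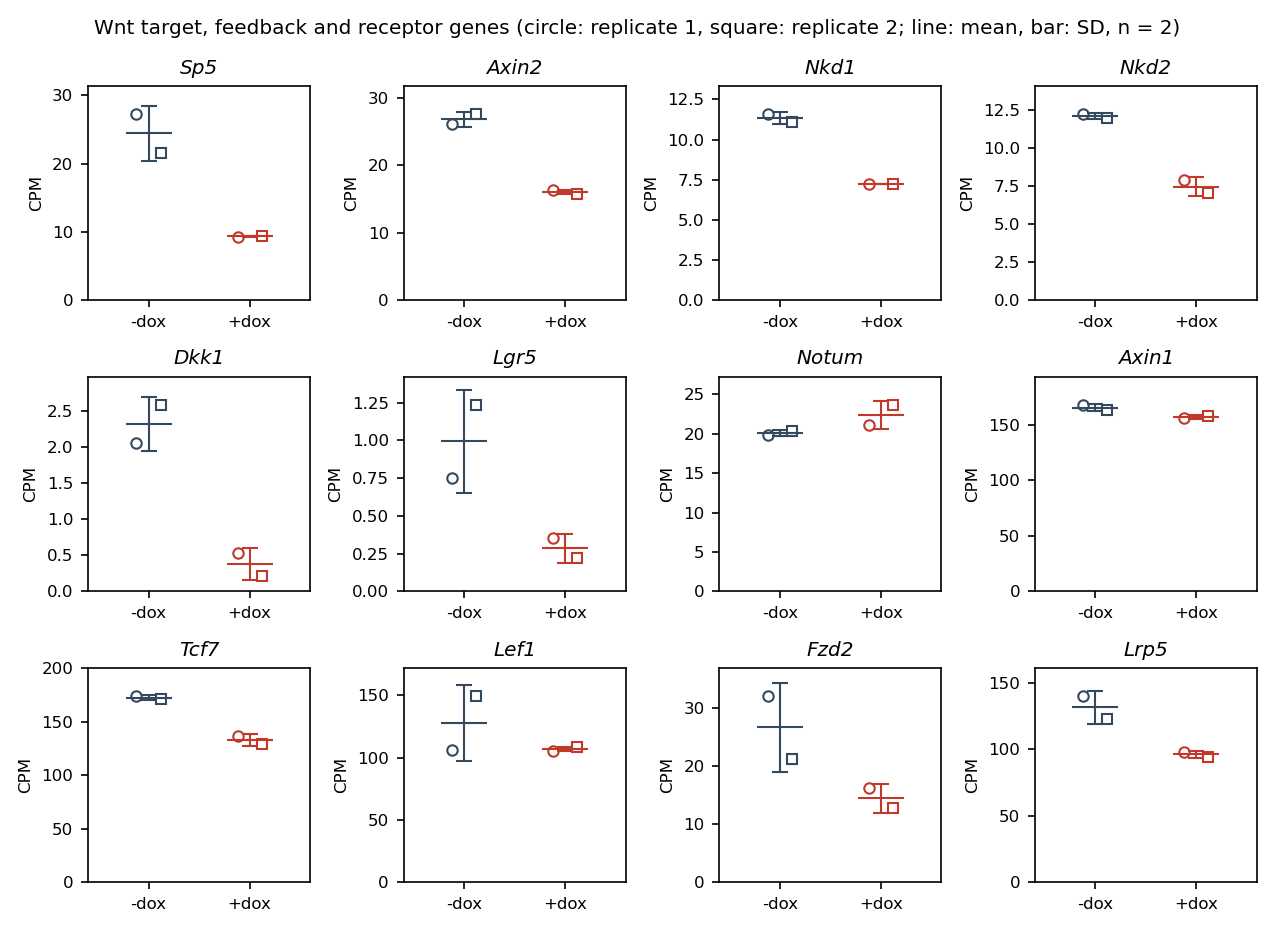
CPM of 12 Wnt target, feedback and receptor genes in the -dox (dark) and +dox (red) libraries, each panel on its own axis from 0. Circles are replicate 1, squares replicate 2, the line is the mean and the bar the SD of n = 2. Sp5, Dkk1, Axin2, Nkd1 and Lgr5 have both +dox points below both -dox points, whereas Notum has both above and Lef1 overlaps.

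Dkk1, a secreted antagonist that binds Lrp5 and Lrp6 and is induced by Wnt signals, had the lowest log2 fold change among the Wnt genes that averaged 1 CPM or more. It passed that level only through the -dox group. It had 12 and 5 reads with dox, and 63 and 65 reads without, or 0.533, 0.219, 2.06 and 2.59 CPM. Both +dox libraries lay below both -dox libraries. The log2 fold change was -2.61 ± 0.44 (95% interval -3.58 to -1.65), and it passed the threshold of 0.01 with DESeq2 (adjusted p = 0.00871) but not with edgeR (adjusted p = 0.0104). Without +dox replicate 1 it was -3.38. Dkk1 lies at chr19:30620374-30623986 on the minus strand of mm9.

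Axin2, a scaffold of the destruction complex and a widely used readout of canonical Wnt signals, stood at 16.3 and 15.8 CPM with dox and at 26.0 and 27.6 CPM without. The 2 libraries of each group lay close together and the groups were apart. Its log2 fold change was -0.74 ± 0.15 (95% interval -1.07 to -0.41), called by DESeq2 (adjusted p = 0.00254) and not by edgeR at 0.01 (adjusted p = 0.0257). Axin2 occupies chr11:108781663-108812095 on the plus strand of mm9 with 11 exons, and it shares exon sequence with Gm11670 on the opposite strand. Since the use of strand in the counting is not stated, reads from that gene cannot be told apart from those of Axin2. Without +dox replicate 1 the log2 fold change was -0.76.

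None of the other feedback genes was called. Nkd1, which inhibits Dishevelled, stood at 7.24 and 7.23 CPM with dox and at 11.6 and 11.1 CPM without, a log2 fold change of -0.65 ± 0.19 that did not pass edgeR (adjusted p = 0.0979) or DESeq2 (adjusted p = 0.106). Its close relative Nkd2, named after its values were seen, stood at 7.91 and 7.01 against 12.2 and 11.9 CPM (log2 fold change -0.69, edgeR adjusted p = 0.0794). Axin2, Nkd1 and Nkd2 were thus at 59.9%, 63.8% and 61.8% of their -dox means. Notum, a secreted enzyme that removes the lipid from Wnt proteins, did not share that direction, at 21.1 and 23.6 CPM with dox and 19.8 and 20.4 CPM without (log2 fold change 0.15, 95% interval -0.18 to 0.49, edgeR adjusted p = 0.667). Its exons overlap those of 4732444A12Rik and Gm11768 on the other strand. Axin1, the constitutive relative of Axin2, was counted at 155.6 and 158.0 CPM with dox and at 167.7 and 162.8 CPM without, and its interval of -0.27 to 0.12 included 0 (edgeR adjusted p = 0.709).

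Of the nuclear factors that bind β-catenin, Tcf7 and Lef1, neither was called. Tcf7 was the highest of all 52 Wnt genes per length, at 56.9 CPM per kb of counted exon over the 4 libraries. It stood at 136.7 and 129.1 CPM in +dox and 174.0 and 171.0 CPM in -dox. The groups were apart by a small factor, with a log2 fold change of -0.38 ± 0.09 (95% interval -0.58 to -0.18, edgeR adjusted p = 0.05002, DESeq2 adjusted p = 0.0183). Lef1 stood at 105.5, 108.0 and 106.3 CPM in +dox replicate 1, +dox replicate 2 and -dox replicate 1, and at 149.3 CPM in -dox replicate 2. Its groups overlapped, and the difference of -0.26 (edgeR adjusted p = 0.362) rested on that last library, since without it the value was 0.0058.

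Among the receptors, Fzd2 and Lrp5 were the members with lower levels that DESeq2 called. Fzd2, a Frizzled encoded by a single exon at chr11:102465745-102469372 on the plus strand of mm9, stood at 16.3 and 12.7 CPM with dox and at 32.1 and 21.3 CPM without. The groups did not overlap, but the -dox libraries differed from each other more than the +dox libraries did. The log2 fold change was -0.88 ± 0.21 (edgeR adjusted p = 0.0425, DESeq2 adjusted p = 0.00919). Lrp5, the co-receptor at chr19:3584825-3686564 on the minus strand with 23 exons, stood at 98.3 and 94.2 CPM with dox and at 140.2 and 123.0 CPM without, a log2 fold change of -0.45 ± 0.10 (edgeR adjusted p = 0.0384, DESeq2 adjusted p = 0.00967). The most abundant Frizzled per length was Fzd5, at 157.7 and 132.2 CPM with dox and 140.5 and 136.2 CPM without. Its groups overlapped, with a log2 fold change of 0.07 (95% interval -0.16 to 0.30). Of all 12 receptors, 5 had both +dox libraries below both -dox libraries, Fzd10 had both above, and 6 overlapped, where 27.7% of all genes that averaged 1 CPM or more lay below and 26.1% above. Their log2 fold changes ran from -1.11 for Fzd4 to 0.32 for Fzd10.

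Fzd7, named after its values were seen, was a receptor whose value depended on which library was left out. It was at 68.0 CPM in +dox replicate 1, 30.6 CPM in +dox replicate 2, and 68.6 and 49.3 CPM in the -dox libraries. Between the libraries of replicate number 1 its log2 ratio was -0.01, and between those of replicate number 2 it was -0.69. With all 4 libraries its log2 fold change was -0.26 (edgeR adjusted p = 0.689), and without +dox replicate 1 it was -0.95. Over all alternatives it ran from -0.95 to 0.21.

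**Figure D2:**
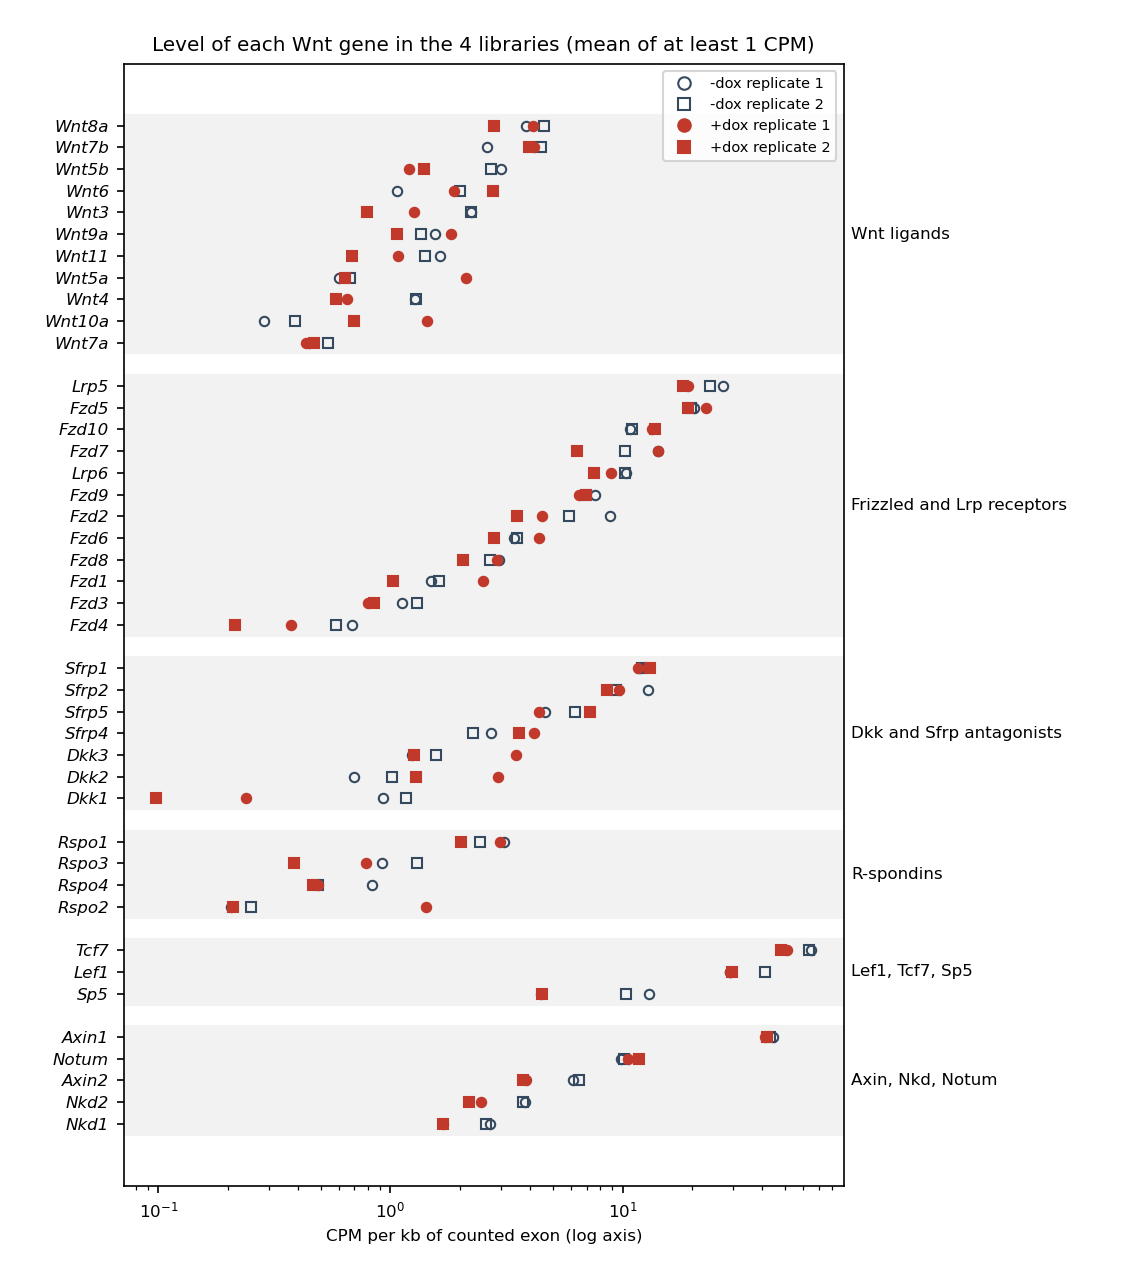
CPM per kb of counted exon, on a log axis, for the 42 Wnt genes that averaged 1 CPM or more, grouped by role. Open dark symbols are -dox and filled red symbols +dox libraries, with circles for replicate 1 and squares for replicate 2. Tcf7 is highest at a mean of 56.9 and the ligands reach at most 3.83.

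The ligands were low in these cells. Wnt8a and Wnt7b, the highest of them per length at 3.83 and 3.80 CPM per kb over the 4 libraries, ranked 17 and 18 among the 52 genes. Wnt8a stood at 6.22 and 4.20 CPM with dox and 5.79 and 6.93 CPM without, and Wnt7b at 14.0 and 13.4 CPM with dox and 8.77 and 15.0 CPM without. The groups of each overlapped, and neither difference passed edgeR (log2 fold changes of -0.29 and 0.21, adjusted p = 0.624 and 0.709). Wnt7b shares exon sequence with AU022754 on the opposite strand. Of the 19 ligands, 8 had a mean below 1 CPM, and Wnt1 was listed with 0 reads in both +dox libraries and with 1 read in each -dox library, too few to give a fold. The 11 ligands above 1 CPM had log2 fold changes from -1.14 to 1.66, with both +dox libraries below both -dox libraries in 4, above both in 1 and overlapping in 6, beside 27.7% below and 26.1% above over all genes at that level.

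Wnt3, Wnt5b and Wnt4 were the ligands with the smallest adjusted p-values and were named after their values were seen. Wnt3, which is required for the primitive streak in the embryo, stood at 3.91 and 2.45 CPM with dox and at 6.94 and 6.89 CPM without (log2 fold change -1.12 ± 0.27, edgeR adjusted p = 0.0437). Wnt5b stood at 2.84 and 3.28 CPM with dox and at 7.07 and 6.42 CPM without (log2 fold change -1.14 ± 0.24, edgeR adjusted p = 0.0288). It was the only one of the 52 genes counted under different transcripts in the 2 replicate tables. Wnt4 stood at 2.49 and 2.23 CPM with dox and at 4.85 and 4.90 CPM without (log2 fold change -1.04, edgeR adjusted p = 0.05002). In each of the 3 genes the +dox values lay below the -dox values. Without +dox replicate 1, Wnt3 was at -1.50, Wnt5b at -1.04 and Wnt4 at -1.13.

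Several ligand genes are neighbours in the genome. Wnt3 lies 24353 bases from Wnt9b on chromosome 11, and Wnt9b was counted with 6 and 1 reads with dox and 12 and 10 reads without. Wnt6 and Wnt10a lie 6699 bases apart on chromosome 1. Wnt6 stood at 3.86 and 5.69 CPM with dox and 2.19 and 4.10 CPM without, and its groups overlapped, unlike those of Wnt10a described below. Wnt3a with Wnt9a on chromosome 11, and Wnt10b with Wnt1 on chromosome 15, are the other pairs within 100000 bases. Of these 4 genes only Wnt9a averaged 1 CPM or more, with a log2 fold change of -0.02, or of -0.45 without +dox replicate 1. These pairs were described after their values were seen.

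None of the secreted Frizzled-related proteins, which bind Wnt ligands outside the cell, was called. Sfrp1, the highest of the antagonists per length, was counted at 51.0 and 57.1 CPM with dox and 51.9 and 52.8 CPM without (log2 fold change 0.05, 95% interval -0.21 to 0.30). Sfrp2 stood at 19.4 and 17.0 CPM with dox and 25.8 and 18.7 CPM without (log2 fold change -0.29, 95% interval -0.69 to 0.11). Sfrp2 shares exon sequence with Gm16790 on the other strand. Sfrp4, named after its values were seen, had both +dox values above both -dox values, at 7.28 and 6.26 CPM with dox and 4.75 and 3.99 CPM without (log2 fold change 0.63, 95% interval 0.12 to 1.14, edgeR adjusted p = 0.169). It was 0.52 without +dox replicate 1. Dkk4 was listed with 1, 0, 0 and 3 reads and has no fold.

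R-spondins strengthen Wnt signals by keeping Frizzled receptors at the cell surface, and Lgr5 is one of their receptors. Rspo1 stood at 5.42 and 3.68 CPM with dox and 5.63 and 4.42 CPM without, with overlapping groups (log2 fold change -0.15, 95% interval -0.72 to 0.43). Rspo3 stood at 1.87 and 0.920 CPM with dox and at 2.19 and 3.11 CPM without (log2 fold change -0.92 ± 0.37, edgeR adjusted p = 0.209). Its log2 fold change without +dox replicate 1 was -1.52. Lgr5 was counted with 8 and 5 reads with dox and 23 and 31 reads without, or 0.355, 0.219, 0.753 and 1.24 CPM. Its groups did not overlap, yet at this depth the difference of -1.76 ± 0.54 did not pass edgeR (adjusted p = 0.104), and DESeq2 gave no adjusted p.

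Across the 42 Wnt genes that averaged 1 CPM or more, the median log2 fold change was -0.23, beside -0.0011 over all 13911 genes at that level. The range ran from -2.61 to 1.84. The 10 genes below it were 8 ligands, Dkk4 and Lgr5. Of the 42, 3 passed that level through a single group, Dkk1 in -dox and Rspo2 and Wnt10a in +dox. Both +dox libraries lay below both -dox libraries in 18 of the 42 and above both in 5, where the shares over all genes at that level were 27.7% and 26.1%. The other 19 overlapped. Each replicate number has a table with 1 +dox and 1 -dox library, and 24 of the 42 were lower with dox in both of these tables (35.7% of all genes), 6 were higher in both (34.0%) and 12 changed sign between the tables. In the first table the median of the 42 log2 ratios was -0.06 and in the second -0.36. The medians by role were -0.65 for the 5 feedback genes, -0.38 for the nuclear factors, -0.31 for 4 genes of the R-spondin axis, -0.23 for the receptors, -0.12 for 11 ligands and 0.10 for 7 antagonists.

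**Figure D3:**
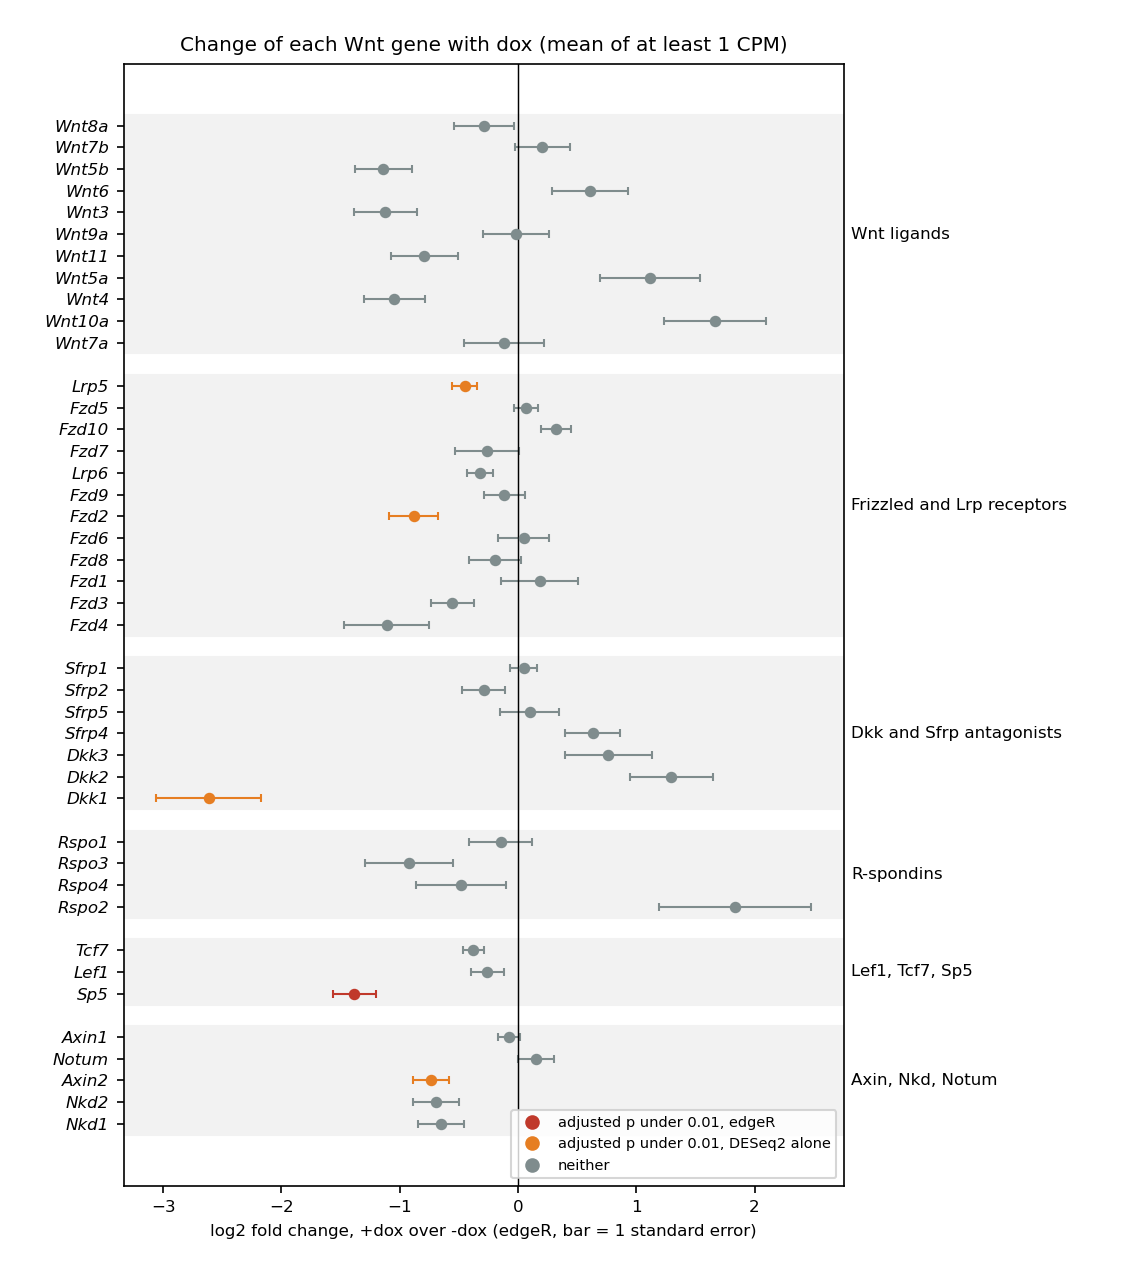
Log2 fold change of +dox over -dox from edgeR, with bars of 1 standard error, for the 42 Wnt genes that averaged 1 CPM or more, grouped by role, with Sp5 in red (called by edgeR) and Dkk1, Axin2, Fzd2 and Lrp5 in orange (called by DESeq2 alone). Values run from -2.61 for Dkk1 to 1.84 for Rspo2.

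Some Wnt genes were high in +dox replicate 1 above all. In 6 of the 42 genes that library was more than 1.5 times above every other library, and over all genes at that level the share was 3.03%. These 6, named after their values were seen, were the ligands Wnt5a and Wnt10a, the antagonists Dkk2 and Dkk3, the receptor Fzd1 and Rspo2. Of them, Rspo2 and Wnt10a averaged 1 CPM or more only through the +dox group, so their place in this count rests partly on the same values. Rspo2 stood at 4.75 CPM in +dox replicate 1, 0.701 CPM in +dox replicate 2, and 0.688 and 0.837 CPM in the -dox libraries. Wnt5a, a ligand known mainly for signals without β-catenin, stood at 9.24 CPM in that library and at 2.76, 2.62 and 2.91 CPM in the others. It shares exon sequence with Gm2670 on the opposite strand. In percent of the -dox mean, +dox replicate 1 and +dox replicate 2 were at 624% and 91.9% for Rspo2, 334% and 99.8% for Wnt5a, 249% and 90.5% for Dkk3, and 161% and 65.7% for Fzd1.

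Dkk2 and Wnt10a stayed above the -dox mean in both +dox libraries. Dkk2 stood at 10.7 and 4.77 CPM with dox and 2.59 and 3.75 CPM without, and Wnt10a at 2.80 and 1.36 CPM with dox and 0.557 and 0.757 CPM without. The +dox values exceeded the -dox values in both genes, but edgeR called neither with all libraries (log2 fold changes of 1.30 and 1.66, adjusted p = 0.0705 and 0.0621). Without +dox replicate 1 the values were 0.60 for Dkk2 and 1.05 for Wnt10a. Rspo2 was then at -0.12, Wnt5a at -0.0017, Dkk3 at -0.14 and Fzd1 at -0.61. The summed level of the 34 fibroblast genes was at 213% and 105% of its -dox mean in the same 2 libraries. Chromosome Y reads, as a share of each library, were at 394% and 124%. Fn1 alone, at 2326 and 1357 CPM with dox and 1238 and 1472 CPM without, held a large part of that fibroblast sum. Of the 33 fibroblast genes that averaged 1 CPM or more, 22 had both +dox libraries above both -dox libraries, 0 had both below and 11 overlapped. Over all genes at that level 26.1% lay above and 27.7% below. The part of feeder cells in the 6 Wnt genes was not tested.

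**Figure D4:**
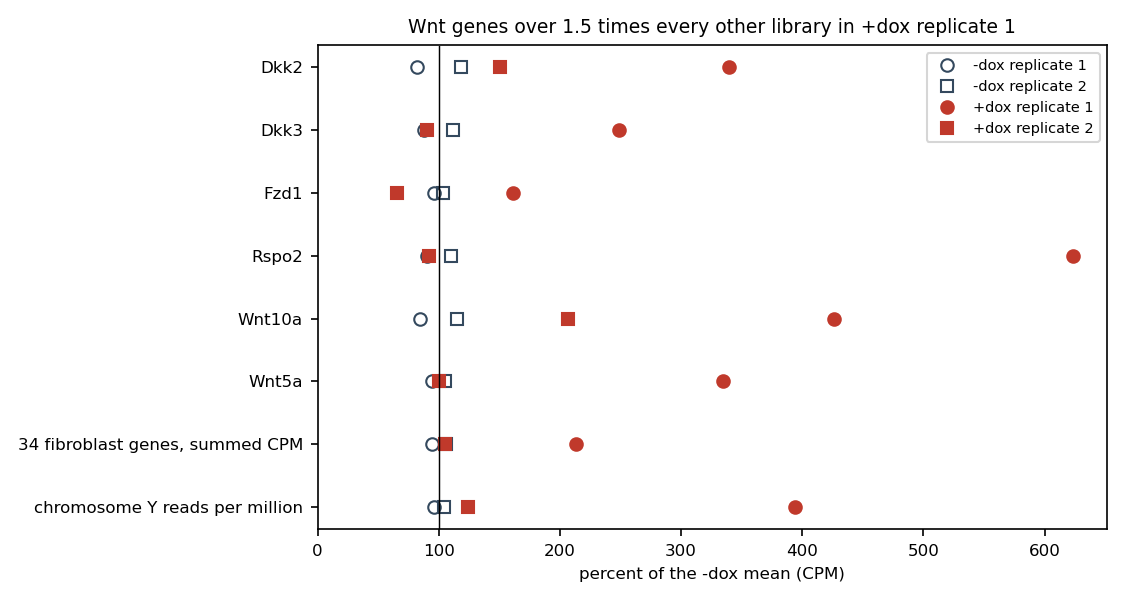
Level in each library as a percent of the -dox mean (line at 100) for the 6 Wnt genes that are more than 1.5 times above every other library in +dox replicate 1, beside the summed fibroblast genes and the chromosome Y reads. The +dox replicate 1 points reach 624% for Rspo2 and 213% for the fibroblast sum, while +dox replicate 2 lies between 65.7% and 207%.

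Without +dox replicate 1, edgeR called 9 Wnt genes lower and 0 higher, against 3.56% of 19555 genes called lower in that fit. They were Sp5, Dkk1, Axin2, Fzd2, Fzd7, Lrp5, Wnt3, Wnt5b and Rspo3. Such a fit leaves a lone +dox library, which is assumed to vary like the others. Calls over all genes also leaned to lower levels in that fit, so the lack of higher Wnt calls carries little weight. In +dox replicate 2 alone, 27 of the 42 Wnt genes lay below both -dox libraries, where 39.4% of all genes at that level did. Over the alternatives run, log2 fold changes ranged from -1.54 to -1.20 for Sp5, -3.38 to -2.11 for Dkk1 and -0.78 to -0.70 for Axin2. They ran from -1.15 to -0.55 for Fzd2 and from -1.50 to -0.82 for Wnt3. None of these genes was called by edgeR without a -dox library. Without +dox replicate 2, edgeR called 5 Wnt genes lower, which were Sp5, Dkk1, Axin2, Fzd2 and Wnt5b, and 5 higher, all from the 6 genes that were high in +dox replicate 1. Over all 19808 genes of that fit it called 1.81% lower and 2.62% higher, so that calls in general leaned to higher levels there.

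A further 71 genes of the pathway, listed as genes of secretion and reception, of the cytoplasm and nucleus, of planar polarity and as further targets, were set beside the 52. One of them, T, was called by edgeR and DESeq2, and it was lower, while 0 were higher. T stood at 5.73 and 7.18 CPM with dox and at 46.3 and 66.7 CPM without, a log2 fold change of -3.13 ± 0.20 (edgeR adjusted p = 1.74e-05). Without -dox replicate 1 or -dox replicate 2 its log2 fold changes were -3.37 and -2.84, and the call was lost with all others. At an adjusted p under 0.05, edgeR added Cdx2, a caudal homeobox gene, at 0.311 and 0.569 CPM against 1.80 and 2.19 CPM (log2 fold change -2.16 ± 0.42, adjusted p = 0.0211). None of the 18 genes of secretion and reception, the 32 cytoplasmic and nuclear genes or the 10 planar polarity genes was called by edgeR at 0.05. Ctnnb1, which encodes β-catenin and was named after its values were seen, stood at 519 and 478 CPM with dox and at 594 and 591 CPM without (log2 fold change -0.25, edgeR adjusted p = 0.137). The median of the 68 genes with at least 1 CPM was -0.10.

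Several genes listed as primitive streak genes also fell. Of 22 such genes, T among them, edgeR called 10 lower and 0 higher at 0.01. The list was chosen with earlier results of these data known, so the count is a description only. Over all genes tested the shares were 0.519% lower and 0.0798% higher. The summed level of the 22 was 867 and 901 CPM with dox and 1041 and 1131 CPM without. Of the 22, 19 averaged 1 CPM or more, 4 of them through -dox alone. Whether the lower levels of Sp5, Dkk1 and Axin2 lay in the same cells as those of the streak genes was not tested, since the libraries are of bulk RNA.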

How the data were processed

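Polyadenylated RNA of the 4 libraries was analysed from 2 deposited tables of raw counts per gene, one for each replicate number. To make these counts, the authors trimmed adapters (cutadapt), placed reads on mm9 (TopHat2), discarded PCR duplicates and tallied uniquely placed exon reads by gene (HOMER), over 1 RefSeq transcript per gene. Tool versions and the use of strand in the counting are not given in the sources used here. Removing duplicates can lower the counts of very abundant genes, and 547 genes were counted under different transcripts in the 2 tables.

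The 20044 genes with a count of 1 or more in any library were fitted with edgeR 4.0.16 (R 4.3.3, trimmed mean of M values scaling, glmQLFit with the adjustment for small counts off, glmQLFTest), and p-values were adjusted by Benjamini-Hochberg over all of them, with a threshold of 0.01. DESeq2 1.42.0 with defaults was an alternative, and its missing adjusted p-values were kept as missing. The steps were tested on simulated data. Python 3.11.15 with pandas 2.3.3 and matplotlib 3.10.9 made the summaries and plots. Same-group libraries were compared by chi-square over 13911 genes and differed beyond counting noise (19.2 and 13.2 per degree of freedom for +dox and -dox).

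The Wnt genes were matched by symbol, and the members and lists were chosen with earlier results of these data known. Values in every library are given for genes called by edgeR or DESeq2 at 0.01, for the 2 highest of each role per length and for Axin2, Lef1, Tcf7, Sp5, Nkd1, Lgr5 and Notum, and other genes named are marked. Gene spans are those given with the deposited counts. Exon numbers and overlaps come from the GENCODE M1 annotation of mm9, which held all 52 genes. In 6 of them an exon was shared with a gene on the opposite strand, and in 0 with one on the same strand. The alternatives were other tests, scalings, filters, thresholds, a replicate block and each library left out. The ChIP-seq and Hi-C samples were not analysed here.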

Additional observations from a re-analysis of the deposited data

How the results depend on the processing

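With 2 libraries per group, calls depended strongly on the test. Directions of the genes below changed only when a library was left out, and the other refits reuse the same 4 libraries. Of 230 refitted log2 fold changes of the 18 Wnt genes chosen by rule for values in every library, 200 kept direction and side of the 0.01 threshold, 20 newly passed it, 4 lost it and 6 changed sign. The number of Wnt genes called was 1, and it was 5 with DESeq2, 4 with edgeR's likelihood ratio test, 2 with DESeq2 size factors in edgeR and 7 at a threshold of 0.05. When edgeR adjusted its deviances for low counts it was 0 (20 Wnt genes at an unadjusted p under 0.05), and with edgeR's filterByExpr it was also 0 (21 at an unadjusted p under 0.05). Leaving out 1 library gave 0 to 10 Wnt genes. Over all genes, 120 were called, against 375 with DESeq2, 457 with the likelihood ratio test, 0 with adjusted deviances (3254 at an unadjusted p under 0.05), 11 with filterByExpr, 573 at 0.05 and 0 to 992 without 1 library. Of the other pathway genes, 1 was called, against 2 with the likelihood ratio test, 0 with adjusted deviances, 2 at 0.05 and 0 to 7 without 1 library. The cause of these shifts was not tested.

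Among those 18 genes, log2 fold changes crossed 0 with a library left out for Fzd5 (-0.066 to 0.19), Lef1 (-0.48 to 0.0058), Rspo1 (-0.46 to 0.10), Sfrp1 (-0.037 to 0.13) and Wnt7b (-0.13 to 0.64), all of them genes not called by edgeR. The count of Wnt genes lower in both +dox libraries, 18, became 27 with +dox replicate 2 alone, an alternative chosen after seeing the data. Other scalings moved the median log2 fold change of all genes by under 0.05.

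Same-numbered libraries share a table, but nothing in the labels says that the number marks a shared culture, and their deviations correlated at 0.196 over only 2 pairs. With a block for the replicate number, edgeR called 786 genes, 470 lower and 316 higher, with 10 Wnt genes and 3 other pathway genes among them. DESeq2 with that block called 264 genes, 170 lower and 94 higher, with 1 Wnt gene (Sp5). The edgeR block called Sp5 (adjusted p = 1.19e-05), Dkk1, Axin2, Fzd2, Lrp5, Tcf7, Wnt3, Wnt4 and Wnt5b lower and Dkk2 higher. Counts of 5 to 65 reads behind Dkk1 and Lgr5 limit the precision of their folds.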
